A study of Sus scrofa with 2 samples.

Results

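CCR4-NOT is the main cytoplasmic complex that shortens the poly(A) tails of mRNAs, a step that leads to decapping and decay of the transcript. CNOT1 is its scaffold, a CAF1-type nuclease (CNOT7 or CNOT8) and a CCR4-type nuclease (CNOT6 or CNOT6L) remove the adenosines, and the other subunits bind RNA, adaptors or regulators. In mouse male germ cells the complex acts with NANOS2, an RNA-binding protein of spermatogonial stem cells. The genes described here are 10 subunits, CNOT1, CNOT2, CNOT3, CNOT4, CNOT6, CNOT6L, CNOT7, CNOT8, CNOT9 and CNOT10, of 16491 protein-coding genes with a unique symbol. The set was taken from the known composition of the complex, but it leaves out the subunit CNOT11, described separately below. The peaks of the set were all peaks that the authors assigned to 1 of the 10 genes, in every annotation class.

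CUT&Tag was used to map ZBTB16 (PLZF), a DNA-binding protein with zinc fingers that marks undifferentiated spermatogonia. In this assay antibody-guided Tn5 transposase cuts the DNA around the bound protein, and the fragments set free are sequenced. The 2 libraries, called replicate 1 and replicate 2, formed 1 group: 100000 immature spermatogonia each from testis of wild-type (WT) pigs, with no second condition. The age of the pigs is not stated for these libraries, an IgG library and RNA levels were not analysed here, and peaks cannot check cell identity, since marker RNA was not measured. Replicate 1 held 10273 peaks, of which 8 were assigned to CCR4-NOT genes, and replicate 2 held 7301, of which 8 were. Summits held a median of 16 fragments over the replicate 1 peaks and 14 over those of replicate 2. Positions are on Sscrofa11.1. A fold enrichment is the authors' linear ratio of a peak over background, given separately for each library. What that background was taken from, the ZBTB16 library or an IgG library, was not established here.

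Of the 10 genes, 7 had an assigned peak in both libraries: CNOT1, CNOT3, CNOT4, CNOT7, CNOT8, CNOT9 and CNOT10. Among all protein-coding genes 28.2% did. In 6 of the 7 the peak was of the authors' promoter class in both libraries, and 20.8% of all genes had such a peak in both. This class covers up to 3 kb upstream of the transcription start site (TSS). None of its peaks lay wholly downstream of the TSS in either list. CNOT3 had a peak in its 5′ UTR in both libraries, as did 1.67% of all genes. In single libraries, 8 of 10 genes had an assigned peak in replicate 1 (44.9% of all genes) and 7 in replicate 2 (34.1%), and 6 had a promoter peak in each (32.8% and 24.9% of all genes). CNOT6 alone had a peak in exactly 1 library, replicate 1, as did 22.5% of all genes, and CNOT2 and CNOT6L had none in either, like 49.3% of all genes. CNOT9 and CNOT3 carried the highest folds of the set in both libraries. These shares describe 10 genes chosen with earlier results on CNOT9 known, and no test of the set was made.

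**Figure D1:**
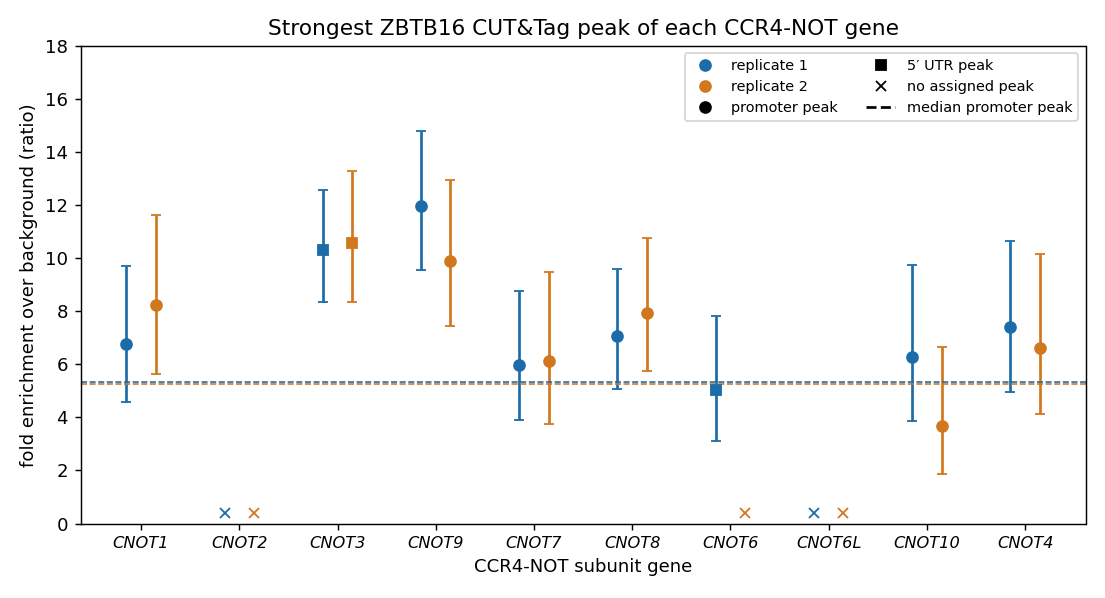
Fold enrichment of the strongest peak of each CCR4-NOT gene in replicate 1 (blue) and replicate 2 (orange); bars are 95% intervals from exact Poisson limits on the summit fragments with the background held fixed, crosses mark genes with no assigned peak, and dashed lines mark the median promoter peak of each library. CNOT9 and CNOT3 lie near 10 to 12, CNOT10 is at 6.28 in replicate 1 and 3.68 in replicate 2, and CNOT2 and CNOT6L have no peak.

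CNOT1, the scaffold on which all other subunits assemble, had a promoter peak on chromosome 6 at 20372063 to 20372983 in replicate 1 and at 20372213 to 20372910 in replicate 2. The replicate 1 peak reached 6.78-fold on 28 summit fragments (exact 95% Poisson interval 18.6 to 40.5) and the replicate 2 peak 8.23-fold on 30 (20.2 to 42.8). The peak of replicate 2 lay wholly inside that of replicate 1, and both spanned the TSS at 20372271. The summits were 362 bp and 131 bp upstream of the TSS, so the 2 libraries placed them 231 bp apart, the widest gap of the set. Replicate 2 alone had a second peak assigned to CNOT1, 12.7 kb upstream of the TSS at 20384999 to 20385339. The authors gave it a downstream class (1-2kb), a label that names no gene. This second peak reached 4.41-fold on 9 fragments (4.12 to 17.1), and replicate 1 had no peak there.

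CNOT2 and CNOT3 form the heterodimer of the NOT module, which docks on the C-terminal part of CNOT1, and their genes stood at opposite ends of the set. CNOT3 had a 5′ UTR peak on chromosome 6 at 55991290 to 55992206 in replicate 1 and 55991290 to 55992208 in replicate 2, the same first base in both. Its fold was 10.3 on 95 fragments (76.9 to 116) in replicate 1 and 10.6 on 73 fragments (57.2 to 91.8) in replicate 2. By fold it ranked 2 of 803 5′ UTR peaks in replicate 1 and 1 of 636 in replicate 2, and it exceeded 99.3% and 99.7% of all peaks of the 2 lists.

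The CNOT3 peak did not touch the TSS of the transcript to which the authors assigned it. Its nearest edge was 934 bp downstream in replicate 1 and 932 bp in replicate 2, and its summits lay 1524 bp and 1481 bp downstream. A gene with a 5′ UTR peak in both libraries and no promoter peak in both, as CNOT3, was 1 of 265 such genes (1.61% of all). The gene table lists 12 transcripts for CNOT3, and their separate starts were not used here.

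CNOT2 (chromosome 5, 34470911 to 34548968) was free of peaks over its whole span in both lists. The nearest peak of replicate 2 began 11.9 kb beyond its upper end and was assigned to KCNMB4, a potassium channel subunit, at 3.38-fold on 8 fragments. In replicate 1 the nearest lay 44.2 kb before its lower end, so neither library held a peak at either end of CNOT2.

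CNOT9, the subunit that contacts the GW182 proteins (TNRC6) of the microRNA machinery and other RNA-binding proteins, had the highest promoter fold of the set. Its peak lay on chromosome 15 at 120589930 to 120590645 in replicate 1 and at 120589967 to 120590758 in replicate 2, and spanned the TSS at 120590354 in both. The fold was 11.95 in replicate 1 on 83 fragments (66.1 to 103), and 9.91 in replicate 2 on 52 fragments (38.8 to 68.2). It ranked 11 of 6251 promoter peaks in replicate 1 and 25 of 4673 in replicate 2. Its summits lay 79 bp and 92 bp downstream of the TSS, 13 bp apart, the narrowest gap of the set.

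The promoter peaks whose folds came nearest to those of CNOT9 in the 2 libraries, by distance on the log2 scale, belonged to OPA3, a mitochondrial protein (12.1-fold in replicate 1 and 9.39-fold in replicate 2, distance 0.08), TDG, a thymine DNA glycosylase (11.2-fold and 9.88-fold, 0.09), and KDM4A, a histone demethylase (11.3-fold and 10.2-fold, 0.10). This likeness rests on 2 libraries.

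CNOT7 and CNOT8 are the alternative CAF1-type nucleases, of which a complex holds 1, and each gene had 1 promoter peak per library. CNOT8 had the higher folds: 7.07 in replicate 1 on 39 fragments (27.7 to 53.3) and 7.95 in replicate 2 on 40 fragments (28.6 to 54.5), on chromosome 16 at 68350005 to 68350813 and 68349911 to 68350792. CNOT7 reached 5.98-fold on 24 fragments (15.4 to 35.7) and 6.13-fold on 18 fragments (10.7 to 28.4), on chromosome 17 at 4948907 to 4949955 and 4949401 to 4949949. In each library the fold intervals of the 2 genes overlapped. The summits of both lay upstream of the assigned TSS, at 349 bp and 252 bp for CNOT8 and at 106 bp and 195 bp for CNOT7. CNOT8 has a further annotated start, since its gene record ends at 68352020, more than 1.2 kb beyond both peaks. The gene record of CNOT7 ends at 4950093, 138 bp beyond its replicate 1 peak and 144 bp beyond its replicate 2 peak. At both genes the summits thus lay inside the gene record.

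CNOT6 and CNOT6L are the alternative CCR4-type nucleases, and neither had a peak of the authors' promoter class. CNOT6 had a 5′ UTR peak in replicate 1 on chromosome 2 at 78201708 to 78202202, with its nearest edge 273 bp and its summit 588 bp downstream of the TSS. It reached 5.05-fold on 18 fragments (10.7 to 28.4), close to the median promoter peak of that library, 5.33-fold. Of the 2315 replicate 1 peaks with 16 to 20 fragments, 62.5% overlapped a replicate 2 peak, and of the 219 of these in 5′ UTRs, 54.3% did. At the split of fragments between the libraries, 13.8 fragments would be its replicate 2 equivalent, and 3331 replicate 2 peaks had 13 or fewer. CNOT6 had no peak in the replicate 2 list, which does not show that binding was absent there, and the reason was not tested.

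CNOT6L (chromosome 8, 73191721 to 73335779) had no assigned peak, although replicate 1 held a peak within its span at 73305063 to 73305595. The authors assigned that peak to MRPL1, a mitochondrial ribosomal protein whose annotated span overlaps that of CNOT6L, as a promoter peak of 6.76-fold on 24 fragments. A second replicate 1 peak, in the 5′ UTR of MRPL1, lay 7.91 kb beyond the upper end of CNOT6L (5.24-fold, 16 fragments). Replicate 2 held no peak within 50 kb of CNOT6L. The strand of CNOT6L is not given in the gene table, so which of its ends is the start was not used.

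CNOT10 binds the N-terminal part of CNOT1 together with CNOT11. It had a promoter peak in both libraries on chromosome 13, at 18649590 to 18650179 in replicate 1 and at 18649729 to 18650068 in replicate 2. The fold was 6.28 on 18 fragments (10.7 to 28.4) in replicate 1 and 3.68 on 9 fragments (4.12 to 17.1) in replicate 2, where the peak had a −log10 q-value of 1.91. It exceeded 72.1% of promoter peaks in replicate 1 and 3.30% in replicate 2, the widest change of rank in the set. Replicate 2 also held a 3′ UTR peak at the far end of CNOT10 (18735818 to 18736123, 3.66-fold, 8 fragments), which the authors assigned to TRIM71, whose TSS was 25.9 kb away.

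CNOT11, which is not among the 10 genes, had a promoter peak in replicate 1 (chromosome 3, 53081050 to 53081318, 4.47-fold, 16 fragments) and none in replicate 2. Both libraries held a peak assigned to it about 17 kb downstream of its TSS, in an intron of RNF149, at 3.76-fold in replicate 1 and 3.45-fold in replicate 2.

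CNOT4, an E3 ubiquitin ligase that in mammals associates loosely with the complex, had a promoter peak on chromosome 18 at 13821365 to 13822145 in replicate 1 and 13821370 to 13821899 in replicate 2. Its fold was 7.41 on 27 fragments (17.8 to 39.3) and 6.63 on 19 fragments (11.4 to 29.7). The summits lay 256 bp and 167 bp downstream of the TSS at 13821573. Of the 158961 bp of CNOT4, the longest gene of the set, no other stretch held a peak in either library.

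**Figure D2:**
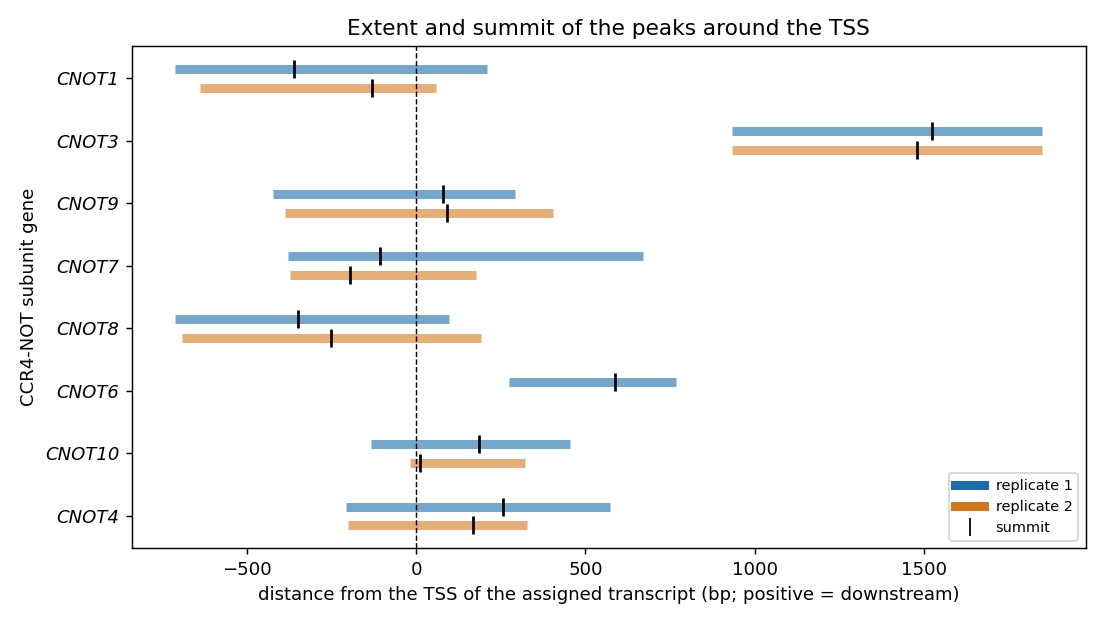
Extent (bars) and summit (black ticks) of the strongest peak of each CCR4-NOT gene with a peak, in bp from the TSS of the assigned transcript, for replicate 1 (blue) and replicate 2 (orange). The promoter peaks of 6 genes span the TSS in both libraries, while those of CNOT3 begin 934 and 932 bp downstream and that of CNOT6 273 bp downstream.

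All 12 promoter peaks of the set spanned the TSS of their assigned transcript, as did 82.7% of all promoter peaks in replicate 1 and 82.4% in replicate 2. For CNOT10 that transcript differed, with its TSS at 18649725 in replicate 1 and 18649746 in replicate 2. The replicate 2 peak of CNOT10 began at 18649729 and did not reach the replicate 1 TSS. The summits of the promoter peaks fell on both sides of the assigned TSS, the same side in both libraries for each gene. They were downstream at CNOT4, CNOT9 and CNOT10 and upstream at CNOT1, CNOT7 and CNOT8. At CNOT7 and CNOT8 upstream holds for the assigned transcript only, since both gene records extend beyond the summits. Over all promoter peaks that spanned the TSS, 49.4% of summits in replicate 1 and 49.5% in replicate 2 were downstream. Within 200 bp of the TSS lay 3 of 6 summits of the set in replicate 1 and 5 of 6 in replicate 2, against 70.4% and 71.9% of all. Widths ran from 590 to 1049 bp in replicate 1 and from 340 to 882 bp in replicate 2, beside medians of 593 and 527 bp for all promoter peaks.

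Of the 6 promoters, 3 lay within 1 kb of an end of another gene, as did 24.8% of the 3438 genes with a promoter peak in both libraries. The upper end of USP37, a deubiquitinase, lay 124 bp from the TSS of CNOT9, and the lower end of VPS37A, an ESCRT-I subunit, 55 bp from that of CNOT7; the gene table gives no strand for these neighbours. The CNOT9 and CNOT7 peaks covered these ends in both libraries. Every peak was assigned to 1 gene, and USP37 and VPS37A had no assigned peak, so the peaks listed for CNOT9 and CNOT7 cannot be told apart from peaks of their neighbours. At CNOT10 the neighbour was the lncRNA LOC110256561, 85 bp from the TSS assigned in replicate 1. The CNOT10 peak covered the end of this lncRNA in replicate 1 and not in replicate 2.

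The promoter peaks of the set had a median fold of 6.93 in replicate 1 (5.98 to 11.95) and 7.29 in replicate 2 (3.68 to 9.91), beside 5.33 and 5.25 for all promoter peaks. All 6 were above that median in replicate 1, and 5 of 6 were in replicate 2, where CNOT10 was below. In the top 10% of promoter peaks were CNOT9 in replicate 1 and CNOT9, CNOT1 and CNOT8 in replicate 2. The median percentile of the 6 was 83.3 in replicate 1 and 88.6 in replicate 2.

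**Figure D3:**
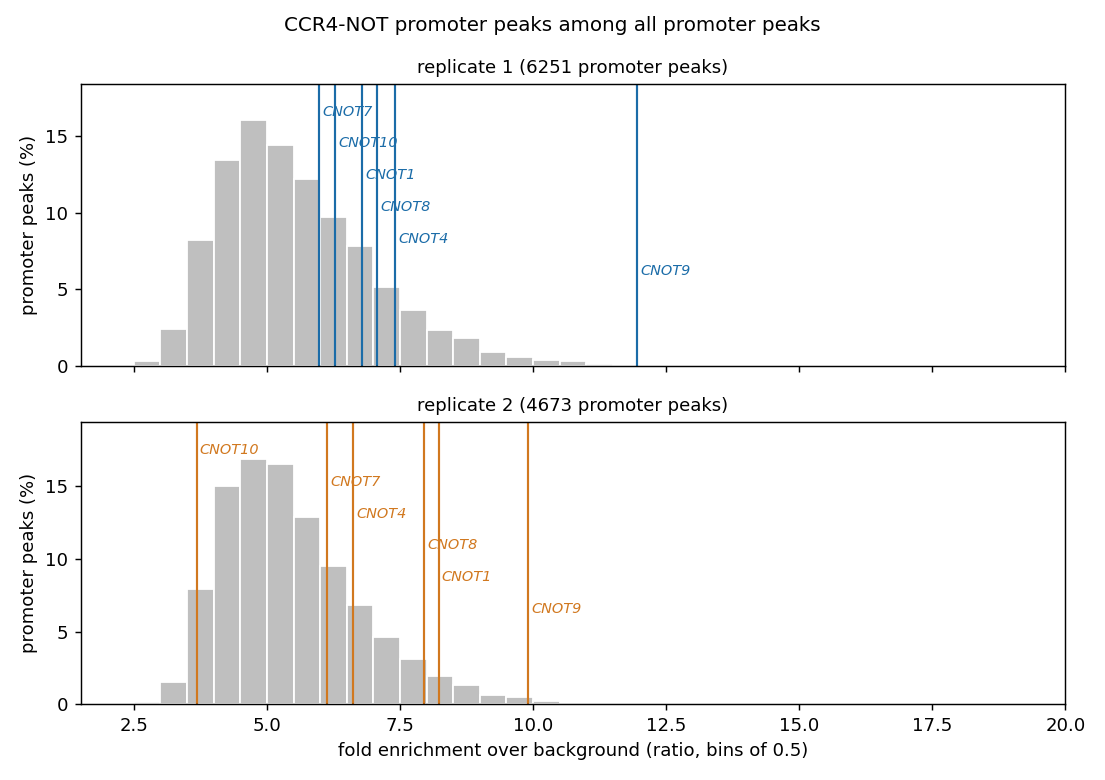
Share of all promoter peaks by fold enrichment (grey bars, bins of 0.5) in replicate 1 (top) and replicate 2 (bottom), with vertical lines at the promoter peaks of CCR4-NOT genes. In replicate 1 all 6 lines lie above the median of 5.33, with CNOT9 far right at 11.95, and in replicate 2 CNOT10 lies at the left edge at 3.68 and CNOT9 at 9.91.

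By fold, the order in replicate 1 was CNOT9, CNOT3, CNOT4, CNOT8, CNOT1, CNOT10, CNOT7 and CNOT6, and in replicate 2 it was CNOT3, CNOT9, CNOT1, CNOT8, CNOT4, CNOT7 and CNOT10. The intervals of every pair of neighbours in either order overlapped, and differences between genes were not tested. The 95% interval of CNOT9 in replicate 1, 9.55 to 14.8, lay above those of CNOT7 (3.92 to 8.78) and CNOT6 (3.10 to 7.82). In replicate 2 the interval of CNOT3, 8.33 to 13.3, lay above that of CNOT10 (1.88 to 6.65). Intervals cover counting error only and take each fragment as an independent molecule. They are too narrow where copies made by PCR were counted.

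The 2 libraries gave overlapping peaks at all 7 genes with a peak in both, with at least 85.7% of each replicate 2 peak inside its replicate 1 partner. The share of a replicate 1 peak inside its replicate 2 partner ran from 52.3% at CNOT7 to 100% at CNOT3. Summits were 13 to 231 bp apart (median 89 bp, beside 97 bp over all 5484 overlapping pairs). How each pair divided its summit fragments between replicate 1 and replicate 2 was tested with a two-sided exact binomial test against the split over all pairs, 56.5% in replicate 1, with Benjamini-Hochberg adjustment over all pairs. None of the 7 pairs passed (0 of 7, adjusted exact p = 1 for each), 0 of 7 had an unadjusted p under 0.05, and 0.0182% of all pairs passed. CNOT9 had 61.5% of its fragments in replicate 1 (exact 95% binomial interval 52.7 to 69.7, unadjusted exact p = 0.26), CNOT1 48.3% (35.0 to 61.8, exact p = 0.233) and CNOT10 66.7% (46.0 to 83.5, exact p = 0.335). A peak had to pass in both lists to enter, which narrows the spread, and the intervals leave room for unequal splits, so the p-values do not show that the libraries were alike at these genes. The test compares these 2 libraries, and whether they stem from separate animals or cultures is not stated, so a difference between them may be technical. Its p-values set each split against counting error alone and measure no spread between animals or cultures.

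**Figure D4:**
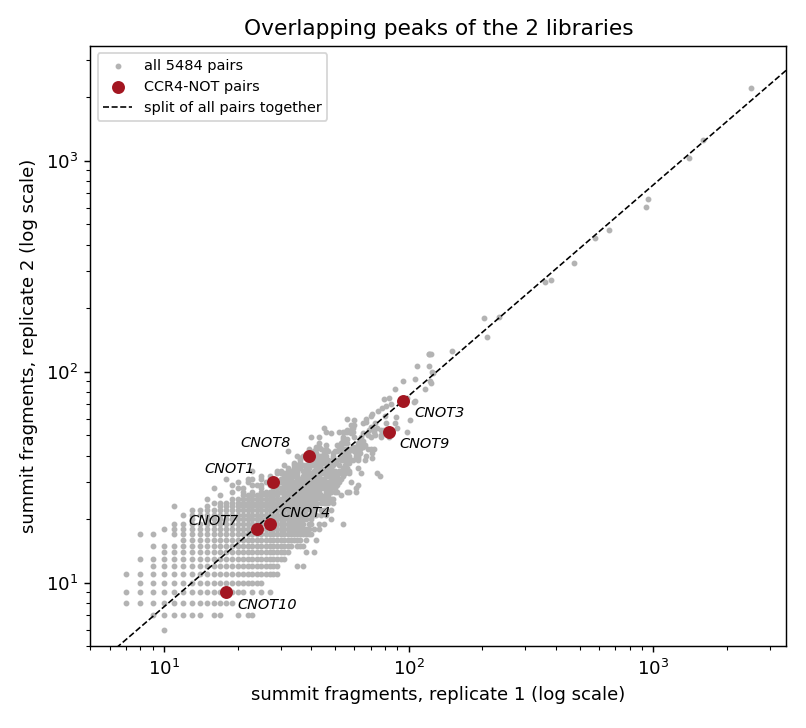
Summit fragments of each pair of overlapping peaks in replicate 1 (x, log scale) and replicate 2 (y, log scale), for all 5484 pairs (grey) and the 7 CCR4-NOT pairs (red); the dashed line is the split over all pairs. CNOT3 (95 and 73 fragments) and CNOT9 (83 and 52) lie high along the line, and CNOT10 (18 and 9) lies lowest of the 7.

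CCR4-NOT genes were set beside lists of other mRNA decay genes, described by counts alone, with bound meaning a promoter peak in both libraries. In the set, 6 of 10 genes were bound. Of 27 genes for proteins that recruit CCR4-NOT to mRNAs or are bound to it, 13 were (48.1%), against 20.8% of all protein-coding genes. They included TOB1 (6.92-fold in replicate 1 and 6.64-fold in replicate 2) and BTG3 (5.80-fold and 5.96-fold), antiproliferative adaptors of the CAF1-type nucleases, and SAMD4B (6.12-fold and 5.66-fold), a homologue of fly Smaug. AGO1, AGO2 and BTG4 had no assigned peak, nor had NANOS2.

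Of 19 genes of decapping and 5′-to-3′ decay, 9 were bound (47.4%). DCP2, the decapping enzyme, had 6.93-fold in replicate 1 and 9.61-fold in replicate 2. Its cofactor DCP1A had 7.18-fold and 7.63-fold, and LSM2, a subunit of the LSM ring, 7.33-fold and 6.71-fold. DCP1B, EDC3 and LSM1 had no assigned peak. Of 6 genes for poly(A)-binding proteins and their partners, 4 were bound (66.7%), with PABPN1, the nuclear poly(A)-binding protein, at 8.05-fold and 7.83-fold, in the top 10% of both libraries. PAIP2B (7.09-fold and 6.03-fold) and PAIP2 (5.12-fold and 4.78-fold), inhibitors of poly(A)-binding protein, were also bound, and PABPC4 had no assigned peak.

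The lists for the other routes of decay had lower counts by peaks in both libraries. Of 9 other deadenylases, 2 were bound in both libraries (22.2%): NOCT (4.18-fold in replicate 1 and 4.07-fold in replicate 2) and ANGEL2 (3.31-fold and 4.84-fold), both relatives of the CCR4-type nucleases. PAN3, PDE12 and PNLDC1 had no assigned peak. Of 16 genes of the exosome, which degrades RNA from the 3′ end, and the SKI complex, 1 was bound (6.25%), the nuclease DIS3 (6.19-fold and 4.36-fold), while EXOSC5, EXOSC7 and HBS1L had no assigned peak. Counted in each library alone, 5 of the 16 exosome and SKI genes had a promoter peak in replicate 1, where 32.8% of all genes did, and 4 in replicate 2, where 24.9% did. These counts are near the share of all genes, so the low count holds for peaks in both libraries and not in each library alone. Over all lists 29 of 78 genes were bound (37.2%), against 20.8% of all genes. With peaks at or above the median fold only, 12 of 78 were, against 11.6% of all genes, a smaller excess. These differences between lists were not tested.

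**Figure D5:**
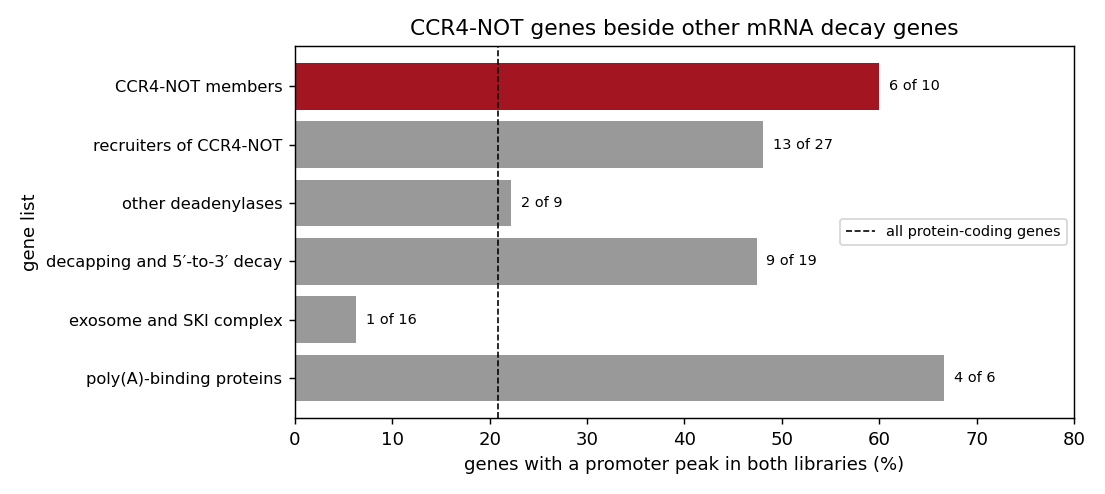
Share of genes with a promoter peak in both libraries, for CCR4-NOT genes (red) and lists of other mRNA decay genes (grey), with counts beside the bars; the dashed line is the share over all protein-coding genes, 20.8%. CCR4-NOT genes (6 of 10), recruiters (13 of 27), decapping genes (9 of 19) and poly(A)-binding proteins (4 of 6) lie right of the line, other deadenylases (2 of 9) lie close to it and the exosome and SKI list (1 of 16) left of it.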

How the data were processed

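ZBTB16 CUT&Tag peaks of 2 libraries of 1 group were used. Per the file headers, the deposited lists give for each peak its position, a fold enrichment (a linear ratio over background), −log10 p-values and q-values, a score (not used), and the gene, class and TSS distance that the authors assigned. The genome build was given as Sscrofa11.1 in the submitters' processing notes. The sources used here name no aligner, peak caller or annotation tool. Deposited −log10 q-values start at 1.31 in each list.

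Whole summit fragments and a background were recovered from each fold and p-value, taking the fold as (fragments + 1)/(background + 1) and the p-value as the Poisson tail above the fragments; 100% of peaks of each list matched to a relative error of 1e-05. Sequencing depth is unknown. The lowest background was 1.21 fragments in replicate 1 and 0.979 in replicate 2. The recovery and the pair test were tested on simulated data.

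Peaks overlapping by at least 1 bp were paired. The gene universe held 16491 protein-coding entries of RefSeq (Sscrofa11.1) whose symbol occurs once and is no LOC number; 78 of the 80 listed decay genes matched, the SKI genes by older symbols. Named genes are the 10 members, the 3 genes nearest to CNOT9 by fold, and from each list up to 3 bound genes by rank, up to 3 genes with no peak by alphabet, and those in the top 10% of both libraries. CNOT11, NANOS2, TRIM71, KCNMB4 and MRPL1 were named after their values were seen. Members, lists and tests were chosen with earlier results of these data known. Alternatives were another class or distance, stricter fold or q, equal list lengths, other overlaps, other expected splits, other measures of height, and leaving out a library. Promoter sequence features were not analysed here. Tools were Python 3.11.15 with scipy 1.17.1, numpy 2.4.6, pandas 2.3.3, and for plots matplotlib 3.10.9.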

Additional observations from a re-analysis of the deposited data

How the results depend on the processing

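The count of CCR4-NOT genes with a promoter peak in both libraries, 6, was 5 to 7 under every alternative run: 7 with any class (CNOT3 added; 28.2% of all genes), 5 with peaks at or above the median fold (11.6%) or with a −log10 q-value of at least 3 (18.4%; CNOT10 lost in each), 6 within 1 kb of the TSS (20.5%) and with lists of equal length (18.6%), and 6 by any peak within 1 kb of either gene end (29.0%), where CNOT3 entered and CNOT8 left. Leaving out replicate 1 gave 6 (24.9% of all genes), and leaving out replicate 2 gave 6 (32.8%). The gene table gives no strand, so the alternative by gene end took either end in place of the start. The count with any assigned peak in both, 7, was 7 by overlap or by reciprocal overlap, and 6 above the median fold. With replicate 1 left out it was 7 (34.1% of all genes), and with replicate 2 left out it was 8 (44.9%). Of 78 decay genes, the 29 bound became 12 with peaks at or above the median fold, where 11.6% of all genes were bound. The count was 35 with replicate 1 left out (24.9% of all genes) and 40 with replicate 2 left out (32.8%). Under the remaining alternatives it was 24 to 37, beside 18.4% to 29.0% of all genes. The median percentile of the member promoters, 83.3 in replicate 1 and 88.6 in replicate 2, became 79.3 and 78.7 when ranked by summit fragments; the cause was not tested. No pair passed under either other expected split. No paired analysis was possible because there is 1 group. Few fragments, 9 to 18, limit the peaks of CNOT10 and CNOT6, the second CNOT1 peak and the replicate 2 peak of CNOT7.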

Other observations

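CNOT3 lies in a stretch of chromosome 6 where some neighbouring genes also had promoter peaks. MBOAT7, a lysophospholipid acyltransferase, had 7.38-fold in replicate 1 on 89 fragments and 7.13-fold in replicate 2 on 61. LENG1, whose span overlaps the end of CNOT3, had 6.24-fold on 36 fragments and 7.04-fold on 31. PRPF31, a splicing factor of the U4/U6.U5 particle, had 8.03-fold on 37 fragments and 8.68-fold on 31. NDUFA3, a subunit of respiratory complex I, had a promoter peak in replicate 1 only, at 3.59-fold on 10 fragments. The 5′ UTR peak of CNOT3 had a higher fold than any of these in both libraries. The recovered background at CNOT3 was 8.32 fragments in replicate 1 and 5.99 in replicate 2, against medians of 2.42 and 2.00 over all peaks, and at CNOT9 it was 6.03 and 4.35. These genes were named after their values were seen.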
